A study of Acomys cahirinus and Mus musculus with 10 samples.

Results

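RNA from the ear of the spiny mouse *Acomys cahirinus* was compared between uninjured tissue (D0) and tissue 20 days after a 4-mm hole was punched through the ear pinna (D20). The table of this comparison lists 662884 components, the gene-level units of a *de novo* transcriptome assembly, and every one of them was taken. The series holds 10 samples, of which these are 2. Of the components, 31209 carried a mouse gene symbol from their best-scoring BLASTN hit below 99% identity, and 14774 genes were followed through 1 component each, the one with the highest bit score. Both groups were ear tissue of sexually mature females of one species. The study's methods state that the punch was made under isoflurane, and the labels name no transgene or drug treatment. D20 tissue was a ring beside the healing margin, so that new and older tissue were read together. The study's methods state 3 biological replicates per time point.

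Values are normalized counts, that is counts divided by the size factor of their library. The deposited table gives ratios only, but group means follow from its pair of ratios, and for 610302 components (92.1%) the counts of 3 libraries in each group could be recovered as well. The share was smaller at high levels, 49.4% at a mean of at least 100, so for abundant genes a D20 mean stands without its 3 libraries. Summed means were 14750236 at D0 and 14454829 at D20, and size factors were 1.27, 1.12 and 1.0 at D0 and 1.13, 0.96 and 0.74 at D20. Across 19788 recovered components with a mean of at least 50, libraries of one group correlated at 0.961 to 0.974 and libraries of different groups at 0.749 to 0.785. Replicates lay close together. The median coefficient of variation was 6.14% at D0, for named genes with a D0 mean of at least 100. It was 6.70% at D20, for those with a D20 mean of at least 100 and recovered counts.

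Complex-tissue regeneration in mammals is rare, and the spiny mouse ear is one of its few models. After re-epithelialization a mass of proliferating mesenchymal cells, often called a blastema, fills the wound margin, and it builds a provisional matrix of fibronectin, tenascin and hyaluronan before dermis, hair follicles, cartilage, fat and nerve are restored. Fibrillar collagens carry tensile strength, metalloproteinases cut the matrix, and mature muscle fibres, adipocytes and myelinating Schwann cells are differentiated cells whose structural genes mark their presence. In whole tissue, fewer cells of a type and less RNA per cell cannot be told apart.

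A component was called at a posterior probability of differential expression of at least 0.95, as deposited from EBSeq, and changes are log2((D20 mean + 1)/(D0 mean + 1)). Of all components, 12249 were called, 1.85% of those listed, with 6283 higher and 5966 lower at D20. Among the 14774 named genes, 4045 were called (27.4%), of which 1870 rose (12.7%) and 2175 fell (14.7%). The counts of each gene list below are to be read against these shares. A change of at least 1 on the log2 scale was reached by 636 genes that rose and 767 that fell, and one of at least 3 by 66 and 113. The median named gene changed by -0.03. A second test was made on the recovered libraries with limma. It covered 6406 named genes with a mean of at least 10, of which 3383 passed at an adjusted p under 0.05 (52.8%), 1524 higher (23.8%) and 1859 lower (29.0%). D20 counts were recovered less often at high D20 levels, so genes that rose to such levels were often untested. Of 11 fibrillar collagens, 9 of them called higher, 2 were tested and 0 passed as higher. The limma shares therefore describe the tested genes only. All 1675 called genes that could be tested passed limma in the direction of their call, and a further 1708 passed that had not been called. The calls and limma rest on the same libraries, so this overlap is no independent support for the calls. The 3 libraries of a group did not overlap with those of the other for 4048 of the 6406 genes (63.2%), higher at D20 in 28.7% and lower in 34.5%.

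**Figure D1:**
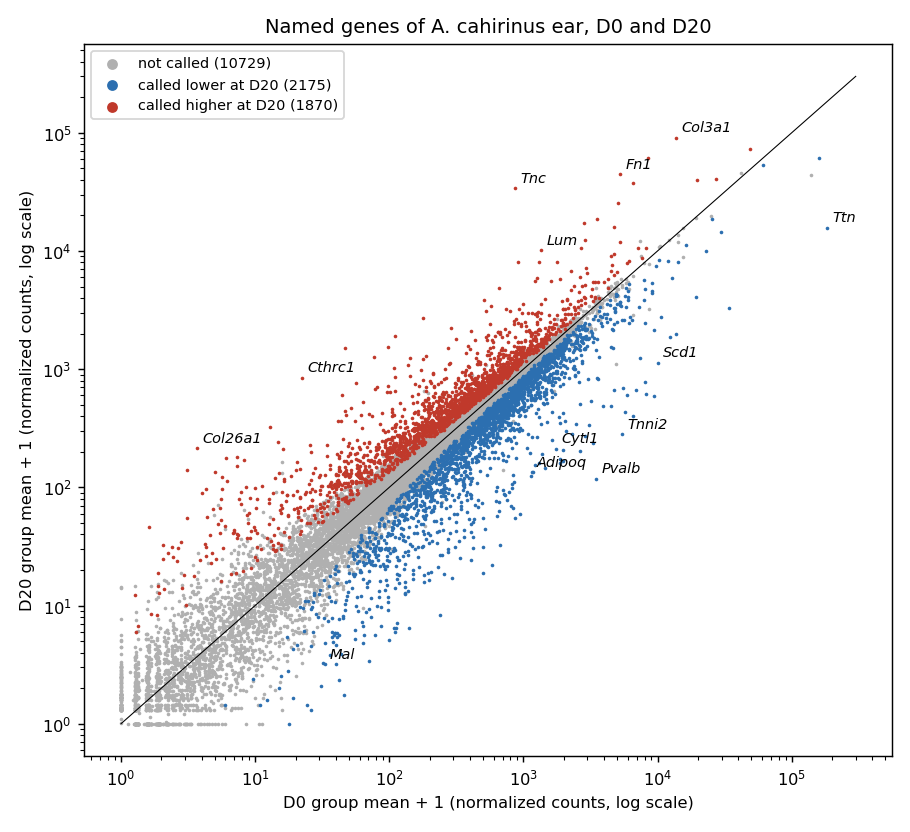
Group means of the named genes of the *A. cahirinus* ear, D0 on the x axis and D20 on the y axis, in normalized counts + 1 on log scales, with the line of equality. Points are genes, red for the 1870 called higher, blue for the 2175 called lower and grey for the rest. *Tnc*, *Cthrc1* and *Col26a1* lie far above the line, and *Ttn*, *Pvalb* and *Tnni2* far below it.

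Skeletal muscle genes held the largest falls. Of 31 mature muscle genes with a component, 28 fell, none rose and 3 were not called, with a median change of -3.19 against -0.03 over all named genes. Their components took up 2.82% of all normalized counts at D0 and 0.275% at D20. *Pvalb*, the calcium buffer of fast fibres, read 3375, 3323 and 3790 in the D0 libraries and 64.9, 100 and 185 at D20. The groups were far apart, and the change of -4.89 was the largest fall of any named gene called with a mean of at least 100 (limma, adjusted p = 1.4e-21). *Tnni2*, fast troponin I, read 5378, 5085 and 5905 at D0 and 195, 212 and 437 at D20. *Ttn*, the giant spring of the sarcomere and the most abundant muscle component, went from a mean of 183936 to 15754, and *Mb*, the oxygen store myoglobin, from 6589 to 402. Fast myosin binding protein *Mybpc2* fell by 4.05 and the Z-disc gene *Myoz1* by 3.98. Of the 15 largest falls, most were genes of muscle fibres. Among them were *Rpl3l*, the muscle form of a ribosomal protein, with a change of -4.85, the muscle cytochrome oxidase subunits *Cox6a2* (-4.72) and *Cox7a1* (-4.10), the kinase *Mylk4* (-4.72) and the nicotinamide riboside kinase *Nmrk2* (-4.43). The ADP-ribosyltransferase *Art5* (-4.12), *Lrrc39* of the sarcomere M-band (-4.02), *Acsl6*, which activates fatty acids (-4.23), and *Tmem52* (-4.09) fell alike.

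The residual muscle signal at D20 was not even between libraries. The third D20 library was the highest for 17 of 18 muscle genes with a D20 mean of at least 10, and the sum of 20 recovered members was 3288, 3420 and 5514 in the 3 D20 libraries against 34295 to 38879 at D0. Every D20 library therefore lay below every D0 library, by a wide margin. The one recovered member that was not lower was *Casq2*, calsequestrin of slow and cardiac fibres, which read 52.0, 56.1 and 44.1 at D0 and 80.0, 82.4 and 90.3 at D20, a change of 0.72 that was not called but passed limma (adjusted p = 0.00063).

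Genes of muscle formation moved in both directions. Of 18 with a component, 3 rose, 8 fell and 7 were not called, with a median change of -1.07. *Mymk*, the fusion protein myomaker, rose from 3.94, 5.35 and 2.01 to 19.5, 29.2 and 32.4. The myogenic regulator *Myog* read 6.30, 3.56 and 4.01 at D0 and 26.7, 28.2 and 16.2 at D20, a change of 2.13 that the posterior did not call and limma did (adjusted p = 1.7e-05). Its libraries did not overlap between the groups. It entered limma through its D20 level alone, and 1708 tested genes in all passed without a call. Embryonic myosin *Myh3* rose by 3.39, from a mean of 6.63 to 78.8, in its best-scoring component, but the sum over the 7 components of this gene changed by -1.63. *Myod1*, the determination factor, fell from 27.6, 20.5 and 19.1 to 11.5, 3.13 and 14.8. *Mstn*, myostatin, which restrains muscle growth, fell by 3.80 from a mean of 76.7 to 4.58. *Pax7* of satellite cells was low throughout, at 6.30, 8.02 and 5.01 against 0, 1.04 and 0, and was not called.

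Fat genes fell almost without exception. Of 21 adipocyte genes, 19 fell, none rose and 2 were not called, with a median change of -2.36. The adipokine *Adipoq* read 1302, 1297 and 863 at D0 and 115, 142 and 142 at D20 (limma, adjusted p = 1.1e-20). *Lep*, leptin, fell from 65.3, 122 and 70.2 to 8.88, 6.26 and 10.8, and the lipid droplet gene *Plin1* from a mean of 703 to 94.6. *Cebpa*, an adipocyte regulator that keratinocytes also use, read 413 and 408 and was not called. Sebaceous gland genes were lower too, 17 of 23 falling and 1 rising, with a median of -1.12. *Scd1*, which desaturates stearic acid, read 10896, 12915 and 6367 at D0 and 1060, 1193 and 1142 at D20. Its name rests on an alignment of 135 bases, and with hits of at least 99% identity kept the gene changed by -0.45 in another component and was not called. The wax ester synthase *Awat1* fell by 1.59 and *Fasn*, fatty acid synthase and the most abundant member at D20, by 0.81 to 8039. *Fads2*, a desaturase of polyunsaturated fatty acids, was the exception and rose from 96.0, 112 and 81.2 to 195, 207 and 214, in a component that also holds contigs of *Fads3*.

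**Figure D2:**
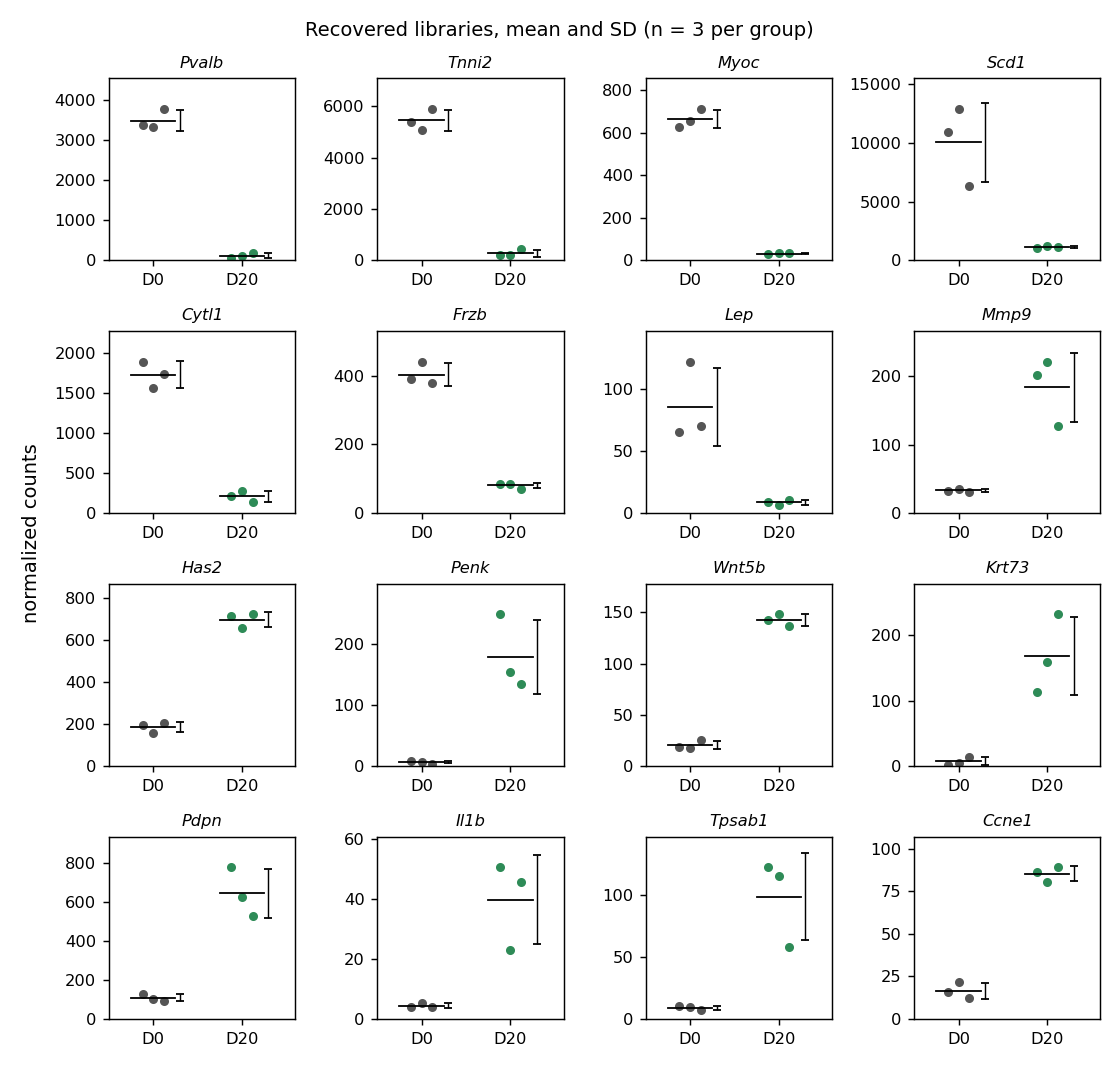
Normalized counts of 16 genes in the 3 recovered libraries of each group (points, D0 grey and D20 green), with the mean (bar) and SD (whisker, n = 3). The y axes start at 0 and differ between panels. The 16 genes were picked by hand and do not stand for all genes. No panel shows an overlap of the groups, as was so for 63.2% of the 6406 named genes tested by limma. *Penk*, *Krt73*, *Il1b* and *Tpsab1* had a mean of at least 10 at D20 only, and *Lep* at D0 only. The third D20 library is the highest of its group for *Pvalb*, *Tnni2*, *Krt73*, *Lep*, *Has2* and *Ccne1*.

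Matrix genes held the largest rises. *Tnc*, tenascin C, a matricellular protein of wounds and limb buds, read 1331, 782 and 487 in the D0 libraries and had a mean of 34056 at D20, a change of 5.29. *Cthrc1*, a secreted protein of activated fibroblasts, read 35.4, 23.2 and 5.01 at D0 against a mean of 842. The D20 means lay far above each D0 library. *Fn1*, fibronectin, rose by 3.07 from a mean of 5287 to 44545, and *Thbs2*, *Tnn* and *Vcan* by 2.57, 2.97 and 1.59. Of 23 provisional and matricellular genes, 12 rose, 4 fell and 7 were not called, with a median of 0.58. *Postn*, periostin, was the most abundant of them at both times, at 48705 and 72853, and rose by 0.58. Those that fell were *Vtn* (-2.01), *Comp* (-1.55), *Tnxb* (-1.12) and *Thbs1* (-0.77), which encode vitronectin, the cartilage oligomeric matrix protein, tenascin X and thrombospondin.

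Of 11 fibrillar collagen genes, 9 rose and none fell, with a median of 1.66. *Col3a1* rose by 2.73, from a mean of 13714 to 90766, and was the most abundant named member of any list at D20. *Col1a1* rose by 2.51, from 6549 to 37230, and *Col1a2* by 2.85, from 8433 to 60910, in a component that also holds contigs of *Il7r*. The components of this list together took up 0.373% of normalized counts at D0 and 2.18% at D20. *Col11a2* (-0.65) and *Col24a1* (0.23) were not called, although *Col11a2*, at 734, 794 and 540 against 437, 444 and 439, was lower by limma (adjusted p = 3.4e-06). Among 19 other collagens, 12 rose and 1 fell. *Col26a1*, a little-studied collagen of reproductive tissues, had the largest rise of any named gene called with a mean of at least 100, 5.86, from 1.57, 4.45 and 2.01 at D0 to a mean of 213. The 3 chains of collagen VI, *Col6a1*, *Col6a2* and *Col6a3*, rose by 2.64, 2.41 and 2.33, while *Col8a1* fell by 0.75.

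Genes that fold, cut and cross-link collagen mostly rose with it, 14 of 23, with 3 that fell and a median of 0.88. *P4ha3*, a prolyl hydroxylase subunit, rose by 3.76 and the collagen chaperone *Serpinh1* by 1.8, while the lysyl oxidase *Loxl4* changed by -1.64 and *Pcolce2*, an enhancer of procollagen cleavage, by -1.73, both called lower. *Lox* itself (0.08) and the lysyl hydroxylase *Plod2* (-0.02) were not called. Of 12 elastic fibre genes, 7 rose and 2 fell. *Fbn2*, the fibrillin of embryonic microfibrils, rose by 2.89 and *Fbn1*, that of adult ones, by 0.58, to means of 4837 and 6775. Elastin, *Eln*, was not called (-0.57), and *Ltbp4*, which binds elastin assembly to latent TGF-beta, fell by 1.46. Among 12 small leucine-rich proteoglycans, 5 rose and 2 fell, led by *Lum*, lumican, from 1697, 1218 and 1144 at D0 to a mean of 10191. With hits of at least 99% identity kept, the component taken for *Lum* was another one, which changed by -0.72. *Dcn*, decorin, remained the most abundant at 14173 and 11951 and was not called. In the basement membrane list, 10 of 22 rose and 2 fell. *Col7a1* of anchoring fibrils rose by 2.56, and *Hspg2*, perlecan, by 1.64. *Lama1* was at 0.787, 1.78 and 0 normalized counts at D0 and 3.55, 1.04 and 4.04 at D20, too few counts to show a difference. These counts are those of 1 of the 16 components of *Lama1*, not of the whole gene.

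Among metalloproteinases and their inhibitors, 16 of 29 rose and 4 fell, with a median of 0.94. The collagenase *Mmp13* read 8.66, 4.45 and 2.01 at D0 and had a mean of 177 at D20, a change of 4.88. The gelatinase *Mmp9* read 32.3, 35.6 and 31.6 against 202, 221 and 127 (limma, adjusted p = 3.4e-13). *Mmp11* rose by 3.93 to a mean of 2691, and *Mmp2* by 1.12 to 6480, the highest level of the list. The inhibitors did not move together. *Timp3* fell by 1.89 and *Timp4* by 1.65, whereas *Timp1* rose by 0.94 and *Timp2* by 0.55. *Has2*, a hyaluronan synthase, rose from 198, 160 and 203 to 714, 659 and 723, and *Hapln1*, which links hyaluronan to aggrecan, fell from 244, 214 and 149 to 75.5, 87.6 and 66.1. Of 11 hyaluronan genes 4 rose and 1 fell, and the receptor *Cd44* read 2799 and 2894 with no call.

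At D0 several lists differed between libraries. The third D0 library was the lowest for 8 of 8 fibrillar collagens with recovered counts, for 14 of 16 other collagens, for 20 of 23 collagen folding genes, for 10 of 12 elastic fibre genes, for 9 of 11 small proteoglycans and for 15 of 19 adipocyte genes, and it was the highest for 20 of 29 mature muscle genes. It was also the lowest for 21 of 34 cell division genes, 14 of 20 Schwann cell genes, 14 of 18 interferon-stimulated genes and 9 of 11 melanocyte genes. The part of these differences in the changes of genes without recovered D20 libraries was not tested.

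**Figure D3:**
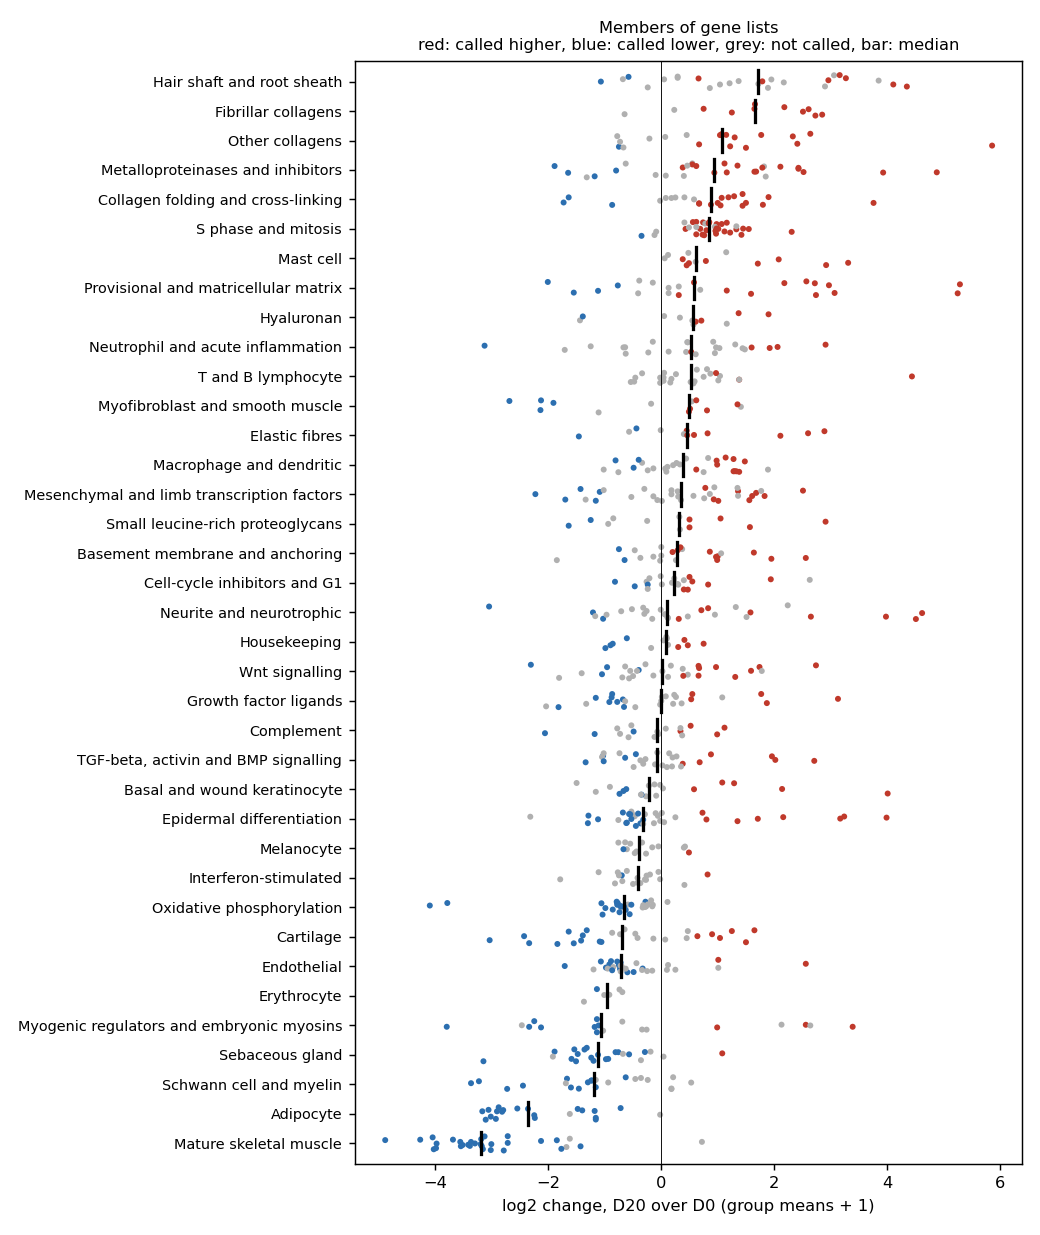
Log2 change from D0 to D20 (x axis) of the members of 37 gene lists (y axis), ordered by their median (black bar). Points are genes, red called higher, blue called lower and grey not called. Mature skeletal muscle and adipocyte lie at the bottom with medians of -3.19 and -2.36, and hair shaft and root sheath and fibrillar collagens at the top with 1.72 and 1.66. Over members with a mean of at least 10 these top medians are 1.37 for the hair list and 1.66 for fibrillar collagens.

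Cartilage genes moved both ways. Of 26, 6 rose, 11 fell and 9 were not called, with a median of -0.69. Those that fell included *Acan*, aggrecan of mature cartilage, by 1.06 to a mean of 2177, the matrix gene *Chad* by 2.43 and *Cytl1*, a chondrocyte-secreted cytokine-like protein, from 1897, 1564 and 1740 to 210, 277 and 146. The chondrocyte regulators *Sox9*, *Sox6* and *Sox5* read -1.09, -1.32 and -0.87, the last of them not called. Those that rose were collagens, *Col2a1* (1.65), *Col9a1* (1.5), *Col11a1* (1.25) and *Col9a2* (1.04), with the hedgehog receptor *Ptch1* (0.90) and *Matn3* (0.64). The component named *Col2a1* also holds contigs of *Col5a3*, and that of *Col9a2* contigs of *Col18a1*. The second D20 library was the highest for 9 of 10 cartilage genes with recovered counts and a D20 mean of at least 10, and its part in these values was not tested.

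Schwann cell genes fell, 12 of 22 with none rising and a median of -1.19. *Mal*, of compact myelin, fell from 35.4, 31.2 and 29.1 to 1.78, 2.09 and 2.70, and *Mbp* by 1.67. Among genes that immature Schwann cells use too, *Erbb3*, the neuregulin receptor and the most abundant member at D20, fell by 0.63 to 789 and *Cdh19* by 1.30, while *Ngfr* (-0.46), *Sox10* (-0.94) and *Gfap* (0.21) were not called. Neurite and neurotrophic genes were mixed, with 8 of 29 rising, 3 falling and a median of 0.11. *Penk*, the precursor of enkephalin peptides, had the largest rise, from 7.87, 7.13 and 4.01 to 249, 155 and 135 (limma, adjusted p = 9.2e-17). *Penk* had a D0 mean of 6.34, so it entered limma through its D20 level alone. Its groups did not overlap, as was so for 63.2% of the 6406 tested genes, and the lowest D20 library was far above the highest at D0. *Lgi2* rose from a mean of 3.28 to 96.4, and *Nefm*, a neurofilament subunit, from 3.15, 0 and 0 to 32.0, 23.0 and 39.1. The axon guidance receptor *Robo1* was the most abundant at D20, with 1997 and a change of 1.58, and *Sncg*, a synuclein of sensory neurons and fat, fell by 3.05. *Prph*, *Lgi3* and *Nell1* had D20 means of 0.296, 1.84 and 1.49 and too few counts to show a difference, with *Lgi3* and *Nell1* at 0 in the 3 D0 libraries. For *Lgi3* and *Nell1*, which have 5 and 2 components, these counts are those of 1 component, not of the whole gene.

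Of 25 hair shaft and root sheath genes 7 rose, 2 fell and 16 were not called. Their median was 1.72, or 1.37 over members with a mean of at least 10. The summed counts of all their components did not follow the median, at 0.0898% of normalized counts at D0 and 0.0795% at D20, with *Krt71* the most abundant member at both times. *Krt73*, a keratin of the inner root sheath, read 2.36, 5.35 and 14 at D0 and 113, 159 and 232 at D20. *Krt25*, in a component with *Krt27* and *Krt28*, rose from 59.8, 84.6 and 183 to a mean of 1902, and *Tchh*, trichohyalin of the same sheath, from 55.1, 58.8 and 177 to 1553. *Tchh* is counted in the epidermal differentiation list below, not among the hair genes. It was called at a posterior of 0.96 and changed by 0.42 with no call when hits of at least 99% identity were kept. In both *Krt25* and *Tchh* the third D0 library was the highest, and the third D20 library was the highest for 11 of 13 recovered hair genes. *Shh*, the hedgehog ligand of the hair placode, was at 0 in the 3 D0 libraries and read 14.2, 12.5 and 13.5 at D20. Its posterior was 0.77, so it was not called, but it passed limma (adjusted p = 2.1e-05). It entered limma through its D20 level alone, and 1708 tested genes in all passed without a call. *Krt71* fell by 1.07, in a component that also holds contigs of *Krt2* and *Krt77*.

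Epidermal genes moved both ways. Of 35 differentiation genes 8 rose, 13 fell and 14 were not called, with a median of -0.32. *Krt10*, the main suprabasal keratin, read 15588 and 15656. *Dsp*, desmoplakin, was the most abundant at D20 with 18779 and fell by 0.45, and *Krt2*, a keratin of the mature upper epidermis, fell by 1.30. The *Krt2* call was lost when hits of at least 99% identity were kept. The largest rises of this list were those of *Tchh* (3.99), described with the hair genes above, *Rptn* (3.24) and *Tgm3* (3.17). The connexins *Gjb2*, *Gjb6* and *Gja1* rose by 1.71, 2.16 and 0.73, and *Casp14* and *Ivl* by 1.35 and 0.80. Of 19 basal and wound keratinocyte genes 5 rose and 4 fell. *Sprr1b*, a cornified envelope protein induced by wounds, rose from 18.1, 9.84 and 13.7 to a mean of 239, the fibronectin receptor *Itga5* by 2.14 and *Itgb1* by 1.08, while *Itga6*, *Itgb6* and *Trp63* fell by 0.35, 0.67 and 0.62. Type I and type II keratins of close sequence shared components, so *Krt6a* (27333 and 40848) and *Krt15* (9032 and 5404) stand for several genes, *Krt6a* called higher and *Krt15* lower. With hits of at least 99% identity kept *Krt6a* changed by -1.50 in another component, and *Krt17* rested on a piece of 67 bases that read 15.1 and 12.3.

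Cell division genes rose. Of 34 genes of S phase and mitosis 25 rose, 1 fell and 8 were not called, with a median of 0.85. *Ccne1*, cyclin E, which drives entry into S phase, read 15.7, 21.4 and 12 at D0 and 86.2, 80.3 and 89.0 at D20. The proliferation marker *Mki67* rose from 1554, 1266 and 1079 to a mean of 2172, and *Plk1* and *Cdk1* by 1.45 and 1.22. The libraries of all 15 members with recovered counts lay higher at D20 without overlap, against 28.7% of the 6406 named genes tested by limma. The other members had no recovered D20 counts, so the lack of overlap covers only part of the list. Among them *Tpx2*, a spindle assembly factor, fell by 0.35, and *Pcna* (-0.09) and *Ccne2* (-0.12) were not called. Of 21 inhibitors and G1 genes 6 rose and 3 fell. *Cdkn1c*, the p57 inhibitor, rose by 1.94 to 410. The p21 gene *Cdkn1a* read 184, 160 and 200 at D0 and 233, 212 and 220 at D20, was not called, and passed limma with an adjusted p of 0.039 that was lost without 5 of the 6 libraries in turn. The p27 gene *Cdkn1b* fell from 616, 652 and 631 to 456, 467 and 445.

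Among 29 Wnt genes 9 rose and 4 fell, with a median of 0.02, against 12.7% rising and 14.7% falling over all named genes. *Wnt5b* rose from 18.9, 17.8 and 25.1 to 143, 148 and 137 and *Wnt5a*, the most abundant ligand of the list at D20, by 1.59 to 1766, while the secreted inhibitor *Frzb* fell from 390, 441 and 378 to 85.3, 85.6 and 71.4. The inhibitors *Dkk2* (-1.05) and *Wif1* (-0.96) fell as well, and *Dkk3* (1.31) and *Sfrp2* (1.74) rose. In the TGF-beta, activin and BMP list 6 of 27 rose and 5 fell, not far from those shares. The ligand *Tgfb3* rose by 2.02 and *Fstl1*, a secreted glycoprotein that binds such ligands, by 1.96 to 10527, while *Gdf10* fell by 1.34 and *Inhbb* by 1.03. *Tgfb1* named no component of its own, and contigs of it lay in that of *Tgfb3*. Of 26 growth factor genes 5 rose and 8 fell, against the same shares. *Nrg1*, neuregulin, rose by 3.13 from 85.8, 77.5 and 75.2 to a mean of 705, and *Egf* fell from 125, 131 and 120 to 37.3, 36.5 and 31.0. Fibroblast growth factors *Fgf1*, *Fgf2* and *Fgf7* fell by 0.88, 0.68 and 1.16, and *Vegfa* by 0.92.

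Of 33 mesenchymal and limb transcription factors 9 rose and 5 fell, with a median of 0.35. Over all named genes 12.7% rose and 14.7% fell, so the falls lay close to that share. *Sox11*, of embryonic progenitors, rose by 2.51 to 255, but by its most abundant component it changed by -0.06. *Runx2*, a regulator of bone formation, rose from 32.3, 19.6 and 22.1 to 93.3, 101 and 76.8, and *Twist1* and *Snai1* by 1.36 and 1.68. *Prrx1*, of limb bud mesenchyme, was the most abundant at D20, at 2115 with a change of 0.93. *Eya1*, a transcriptional cofactor of muscle and placode development, fell from 82.7, 55.2 and 79.2 to 21.3, 17.7 and 25.6. Of 13 myofibroblast and smooth muscle genes 5 rose and 4 fell. *Tagln*, *Cald1* and *Smtn* rose by 0.81, 1.35 and 0.62. *Des*, *Tpm1* and *Synpo2*, which striated muscle uses as well, fell by 2.13, 2.14 and 1.91, and *Lmod1* of smooth muscle changed by -2.69, called lower. *Acta2* named no component.

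Of 30 blood vessel genes 13 fell, 2 rose and 15 were not called, with a median of -0.71. Among those not called were *Vwf* (0.25), *Eng* (0.12), *Flt4* (0.10), *Sox18* (1.01) and *Tek* (-0.70). *Pecam1* read 1506, 1594 and 1523 at D0 and a mean of 831 at D20, in a component that also holds contigs of *Rbms3*. The lymphatic receptor *Lyve1* fell from 191, 221 and 216 to 65.7, 85.6 and 39.1. *Kdr*, *Flt1* and *Cdh5* fell by 0.78, 1.07 and 0.72. The members that rose were *Apln* (1.0), a peptide of sprouting tip cells, and *Pdpn* (2.56), from 129, 103 and 93.3 to 780, 628 and 530, which fibroblasts and keratinocytes express too.

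Of 28 macrophage and dendritic genes 10 rose and 3 fell, with a median of 0.38. The class II genes *H2-Aa*, *H2-Ab1* and *Cd74* rose by 1.48, 1.38 and 1.28, *Cd207* of Langerhans cells by 1.33 and *Arg1* by 0.62, while *Cd163* and *Mertk* fell by 0.81 and 0.49 and *Csf1r* (0.07) and *Lyz2* (0.27) were not called. *Il1b* read 3.94, 5.35 and 4.01 at D0 and 50.6, 23.0 and 45.8 at D20. Of 25 neutrophil and inflammation genes 5 rose, 1 fell and 19 were not called. The antimicrobial *Camp* fell from 42.5, 44.5 and 31.1 to 2.67, 4.17 and 4.04. *Il2ra*, the interleukin-2 receptor alpha chain, rose from a mean of 4.66 to 122. Of 25 lymphocyte genes it was 1 of 3 that rose, a share close to the 12.7% of all named genes, and none fell. The others were *Tcf7*, a transcription factor of T cells and Wnt signalling, from 151 to 297, and the costimulator *Icos*, from 6.21 to 17.8. *Cd3e* of the T cell receptor complex, at 10.8 and 20.6, was not called. The first D20 library was the highest for 9 of 11 lymphocyte genes with recovered counts, and its part in these values was not tested. Of 13 mast cell genes 8 rose and none fell, with a median of 0.61, and the third D0 library was the lowest for 10 of 11 with recovered D0 counts. The tryptase *Tpsab1* read 10.2, 9.80 and 7.02 against 122, 115 and 58.0, and the chymase *Mcpt4* 617, 642 and 252 against a mean of 3816. Interferon-stimulated genes had a median of -0.42, with 1 rising and 1 falling of 20. Complement genes had one of -0.07, with 4 rising and 3 falling of 17. Over all named genes 12.7% were called higher and 14.7% lower. Melanocyte genes had a median of -0.39 with 1 call in each direction of 14. By limma 5 of 9 tested were lower and none higher, against 29.0% lower and 23.8% higher over all tested genes. The member called higher, the receptor *Kit*, is in the mast cell list too. Of 6 erythrocyte genes 1 fell and none rose, and the globin gene *Hbb-bs*, not called, read 1174, 1270 and 2272 at D0 and a mean of 778 at D20.

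Oxidative phosphorylation genes fell, 18 of 29 with none rising and a median of -0.66. The largest falls, *Cox7a1* and *Cox8b* (-3.79), were muscle forms of their subunits, and common subunits such as *Sdhb* (-1.06) and *Atp5b* (-0.56, to 4053) fell by less. Of 13 housekeeping genes 4 rose and 4 fell, with a median of 0.09. *Tbp* read 188 and 166 and was not called, *Ppia* 3674 and 3951, whereas *Gapdh*, with other contigs in its component, fell by 0.99.

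Beyond the lists, the cadherin *Cdhr1* rose by 5.48 to a mean of 138. *Lrrc15*, a membrane protein of activated fibroblasts, read 6.30, 2.67 and 3.01 at D0 and 148, 104 and 154 at D20. *Plekhg4*, the peptidase *Prss35*, the protease *Adamts19* and the long non-coding RNA *Miat* rose by 4.67, 4.05, 4.20 and 4.38. *Myoc*, myocilin, fell from 628, 653 and 712 to 28.4, 34.4 and 32.4, and *Crhr2*, a receptor of urocortins, from 552, 439 and 500 to 17.8, 32.3 and 40.4. Components with no BLASTN hit made up 6622 of the 12249 called. The largest rise among them was that of comp462942_c8, from 8.66, 3.56 and 1.0 to 263, 268 and 275, followed by comp453244_c29 (5.59) and comp466608_c0 (5.41), whose D20 libraries read 383, 1181 and 931. The largest falls were those of comp120555_c0 (-4.03), comp454042_c2 (-4.01) and comp451776_c9 (-3.77).

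The tables of earlier days use the same D0 libraries, so their values are set beside those of D20 without a test. In the order D5, D10, D15 and D20, mature muscle genes with a mean of at least 10 had medians of -2.93, -2.48, -2.21 and -3.19. Hair genes stood at -0.31, -0.63 and 0.06 on the earlier days and at 1.37 at D20. *Krt73* changed by -0.32, -0.73, 2.45 and 4.35, so its level at D20 was the highest of the 4 days. Fibrillar collagens had medians of 0.19, 2.39, 2.22 and 1.66, and cell division genes 1.8, 0.90, 0.90 and 0.85. The neutrophil and inflammation list stood at 4.04 at D5 and at 0.46 at D20, and *Il1b* at 9.96 and 2.91. Adipocyte medians were -1.79, -1.76, -2.21 and -2.46. Endothelial genes lay near 0 at D5 (-0.00) and D10 (0.04) and at -0.26 and -0.70 after that. *Tnc* and *Mmp13* were highest at D10 (5.99 and 7.0), and *Col26a1* at D20 (-0.53, 2.79, 5.19 and 5.86). Only members with a mean of at least 10 at D0 or D20 entered these medians, so a gene that was high at D20 alone counts and one that was high on an earlier day alone does not. The low means at D15 showed the single-read steps of 2 libraries, and those of the other days of 3. The study's methods state 3 replicates per time point, so the number of libraries behind the D15 values was not settled. Means were solved for equal numbers of libraries in both groups, so D15 values are less certain than the others.

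**Figure D4:**
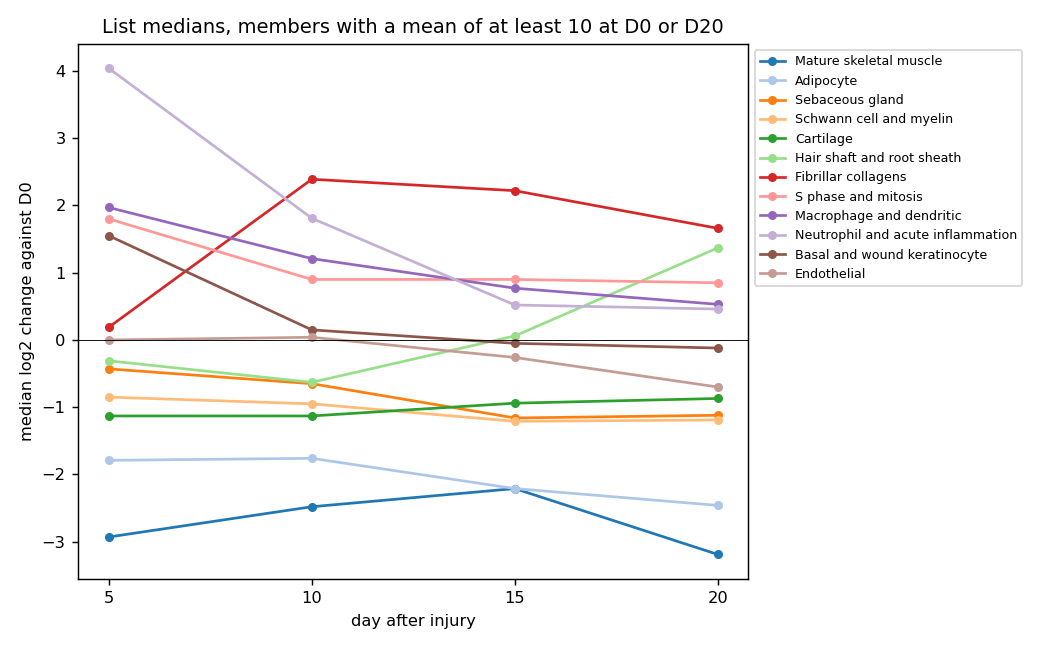
Median log2 change against D0 (y axis) at D5, D10, D15 and D20 (x axis) for 12 gene lists, over members with a mean of at least 10 at D0 or D20. All points share the D0 libraries. The hair list lies below 0 until D10 and reaches 1.37 at D20, while the muscle list stays at -2.21 or lower.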

How the data were processed

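Per the labels and the study's methods, ear RNA was sequenced as strand-specific, rRNA-reduced libraries, an assembly was made with Trinity, reads were counted with RSEM and Bowtie, and each day was compared with D0 by EBSeq. The authors deposited comparison tables holding a posterior probability, which is a score from 0 to 1, and 2 ratios of D0 to the later day. The deposited BLASTN table gives identity in percent, alignment length and bit score. These columns are the authors' own comparison. No other table of values was used here.

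Group means were solved from the 2 ratios, as EBSeq adds 0.01 to both means in one of them and a prior constant in the other. Means are sums of counts times library weights, so counts per library were solved from the 15 printed digits, D0 from the 4 tables that share it and D20 by a search that allowed 0.01 false solutions for a component. D0 counts were recovered for 660791 components (99.7%). Recovery and limma were tested on simulated data. Where 3 libraries scatter by counting alone, the ratio of their variance to the counting variance has a median of 0.693. It was 1.31 at D0 and 1.02 at D20 for components with a mean of at least 100, so the libraries of a group spread beyond counting error at both times. The p-values measure the spread between these libraries only.

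A gene was the component with the highest bit score among those whose best hit below 99% identity is that gene. UCSC transcripts were matched to GENCODE M21 symbols with minimap2 2.31 (39702 of 40842, 97.2%). Contigs of 2 or more genes were found in 1515 components. Calls were made at a posterior of at least 0.95. Before recovery no test between libraries had been planned. limma 3.58.1 (trend, two-sided, Benjamini-Hochberg) on log2(normalized count + 1), for components with a mean of at least 10 and all 6 libraries, was added after the data were seen. Named were the 15 genes with the largest change in each direction with a mean of at least 100, in each list the member highest at D20 and the largest called rise and fall, the genes of the study's text, the 3 largest components without a name in each direction, and list members beside these. The 37 lists hold 881 genes, of which 792 named a component, and members and lists were chosen with earlier results of these data known. Alternatives were a posterior of 0.99, a mean of at least 10, a change of at least 1, both deposited ratios, centring, hits of 99% or more, summed components and the most abundant component. The work ran under R 4.3.3 and Python 3.11.15, with pandas 2.3.3 and NumPy 2.4.6. Some genes that this rule names are not reported here.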

Additional observations from a re-analysis of the deposited data

How the results depend on the processing

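A least log2 change of 1 left 7301 called components and 1403 called genes. limma on the recovered libraries called 32563 components, and this count ranged from 24816 to 28715 with 1 library left out. For named genes the limma count of 3383 ranged from 2983 to 3144. The other counts over all components or all named genes moved by less than 1.5 times. Counts of single lists moved more often, in 41 cases, most of them at a least change of 1, where the basement membrane list kept 3 higher and 0 lower and the cell division list 10 higher. Scaling the libraries to their median ratio raised the share of higher calls among components passing limma from 50.7% to 54.6%, and leaving out 1 library gave shares from 47.4% to 54.9%, under 50% without any one of the D20 libraries. Genes whose direction turned were *Krt6a* (-1.50) and *Lum* (-0.72) with hits of 99% identity or more kept, *Myh3* with summed components (-1.63) or the most abundant one (-2.08), and *Sox11* with the most abundant component (-0.06). With a posterior of 0.99 *Col8a1* and *Tchh* lost their call, and with hits of 99% kept *Krt2* (-2.04), *Scd1* (-0.45) and *Tchh* (0.42) lost it. *Col8a1* lost it with its most abundant component (-1.05), while *Cd44* (0.12) and *Lyz2* (0.19) gained one with summed components. The cause was not tested. No paired analysis was possible because the labels give 1 sample per group and the recovered libraries carry no animal number. Depth limits the low genes: 4037 of the 4045 called genes had a mean of at least 10, and a D20 mean without its libraries has no error.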

Other observations

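Gene groups outside the lists, chosen by symbol after their values were seen and therefore described without a test, moved as follows among members with a mean of at least 10. Of all named genes at that level 14.3% were called higher and 16.6% lower (30.9% in all). Among keratin-associated proteins of the hair shaft, which mostly passed that level at D20 only, *Krtap7-1*, not called, read 7.08, 3.56 and 11 at D0 and 24.0, 42.8 and 123 at D20. Endoplasmic reticulum chaperones rose in 8 of 9 cases, among them *Hspa5* (0.68, in a component with contigs of *Fhit* and *Lor*), the protein disulfide isomerase *Pdia3* (0.73) and *Calr* (0.47). Of 39 genes of the secretory pathway 18 rose and 1 fell, and the cargo receptor *Kdelr3* rose by 1.37 and the COPII coat gene *Sec24d* by 1.1.

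Of 11 imprinted growth genes 7 rose and none fell, with a median of 1.16. The non-coding RNA *H19* went from a mean of 1264 to 5867, *Dlk1* from 9.27 to 78.0, *Gpc3* from 280 to 1111 and *Peg10* from 24.4 to 105. *Igf2* (416 and 884) was not called. Their median was -0.53 at D5, 0.98 at D10 and 1.42 at D15.

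Among 33 cytochrome P450 genes 13 fell and 2 rose, with *Cyp2f2* (-2.90), *Cyp2a5* (-2.77) and *Cyp1a1* (-1.90) the lowest of those called, and *Cyp3a13* (1.61) and *Cyp7b1* (1.5) rising. Of 11 glutathione transferases 5 fell and none rose, and *Gsta3* fell by 1.97 in a component with contigs of *Gsta2*. Of 23 integrin subunits 11 rose and 5 fell, with *Itga5* (2.14), *Itgb3* (1.45) and *Itgb5* (1.02) rising and *Itgb6* (-0.67) and *Itgb8* (-0.61) falling.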
